A study of Mus musculus with 3 samples.

Results

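Heat shock proteins and chaperonins are the folding machines of the cell, and 81 of the 32531 genes listed in the deposited counts carry one of their names. They were taken by gene symbol: the HSP70 genes (Hspa), the small heat shock proteins (Hspb), the mitochondrial chaperonin and its lid (Hspd1, Hspe1), Hsph1, the HSP90 genes, the J proteins (Dnaja, Dnajb, Dnajc) and the subunits of the cytosolic chaperonin CCT (Cct). The samples were 3 RNA sequencing libraries of 1 group, replicates 1, 2 and 3, from 3 adult control mice of the line Lypd1-TRAP OI82, with no treatment. All of them carry a transgene that puts EGFP-tagged ribosomal protein L10a under Lypd1 regulatory DNA, so the tagged cells are those in which that transgene is active. Tagged polysomes were captured with antibodies to EGFP from homogenates of the cortex-amygdala transition zone, a strip where ventral cortex meets the amygdala. The study holds no heated or otherwise stressed group, and no unpurified tissue was analysed here, so the values are basal levels in captured RNA. The labels do not tie each library to 1 of these mice, so p-values and SDs measure the spread between these libraries, which may be technical.

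HSP70 proteins bind unfolded stretches of other proteins, hold them after ATP hydrolysis and release them when new ATP binds. J proteins bring HSP70 its clients and start that hydrolysis, and HSP90 finishes the folding of kinases and receptors. Chaperonins enclose a client in a barrel, CCT in the cytosol (actin and tubulin are its best-known clients) and Hspd1 with Hspe1 in mitochondria. Some of these genes are active in every unstressed cell, and others are known for their induction by heat through the transcription factor HSF1. A further set, in the endoplasmic reticulum (ER), is known for its induction by unfolded proteins there. Neurons are known for a high threshold for the heat response and for J proteins dedicated to synaptic vesicles.

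The promoters of heat-induced members are shown for the HSF1 element that this class is known for, and for how alike its leading pair is. Hspa1a and Hspa1b encode the stress-induced HSP70 and lie beside each other on chromosome 17. Their last 150 bases before the RefSeq start (GRCm38.p6, minus strand, chr17:34972157-34972306 and chr17:34959239-34959388) were the same at 149 of 150 positions. Capitals mark the fixed letters of the heat shock element GAANNTTC, a pair of facing GAA units that HSF1 is known to bind.
Hspa1a: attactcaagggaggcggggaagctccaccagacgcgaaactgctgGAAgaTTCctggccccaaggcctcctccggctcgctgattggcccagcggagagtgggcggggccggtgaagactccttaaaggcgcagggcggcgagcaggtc
Hspa1b: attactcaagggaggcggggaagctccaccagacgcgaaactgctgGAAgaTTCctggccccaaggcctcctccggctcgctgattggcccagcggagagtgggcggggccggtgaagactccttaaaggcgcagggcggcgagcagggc

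A promoter window (250 bases before to 50 after the start, RefSeq, GRCm38.p6) was found for 66 of the 81 members. GAANNTTC, which reads the same on both strands, was present for 6 of 7 stress-induced members with a window, for 0 of 4 constitutive members and for 9.04% of all 27025 genes with a window. No match was found for Hsp90aa1 and Dnajb1, the other stress-induced members. A window was found for 7 of the 8 listed stress-induced and for 4 of the 6 listed constitutive members. The reverse order of the units, TTCNNGAA, was not searched as a pair. Both lists were chosen with results known, so this difference carries no test. Over all members with a window GAANNTTC was present for 16 of 66, among them Hspb3 and Dnajc5g, which were not detected here. A longer form with a further GAA unit after 2 bases of any kind, searched on both strands and containing the shorter one, was found for 4 members, Dnajb6, Hspd1, Hspe1 and Hsph1, against 0.662% of all genes. The element of Hspe1 and that of Hspd1 are the same bases, since these genes lie head to head. A match is a string of letters in this window and not a shown binding site. The following 30-base stretches hold a match each, for Hspb1 on chr5:135887791-135887820 (plus strand), Dnaja1 on chr4:40722333-40722362 (plus), Dnaja4 on chr9:54699458-54699487 (plus) and Hspe1 on chr1:55088053-55088082 (plus), with the fixed letters in capitals. Hspb1 and Dnaja4 each have a further match in their window that is not shown.
Hspb1: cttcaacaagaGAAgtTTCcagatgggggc
Dnaja1: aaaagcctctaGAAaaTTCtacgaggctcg
Dnaja4: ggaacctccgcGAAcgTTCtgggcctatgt
Hspe1: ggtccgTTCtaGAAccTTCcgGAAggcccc

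Another element, the ER stress response element (CCAAT and CCACG set 9 bases apart), was found on either strand for 3 of 11 ER members with a window, Hspa5, Hsp90b1 and Dnajc3, and for no other member; 0.137% of all genes had it. Hspa5 is shown from chr2:34772020-34772049 (plus strand), Hsp90b1 from chr10:86705632-86705661 (minus) and Dnajc3 from chr14:118937822-118937851 (plus), with the fixed letters in capitals.
Hspa5: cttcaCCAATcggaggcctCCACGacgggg
Hsp90b1: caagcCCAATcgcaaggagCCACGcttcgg
Dnajc3: cacaaCCAATcagcgccaaCCACGacccgg

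A gene followed across libraries is given in CPM, its share of all gene counts of the library scaled to a fixed total. Genes set against each other are given in CPM per kb of annotated exon. The libraries held 18526251, 24690301 and 8668527 assigned counts in replicates 1, 2 and 3. All 10 neuronal markers were detected, with a summed level of 10066 to 18496 CPM, beside 3 of 8 microglial markers with a sum of 21.2 to 40.0 CPM. Astrocyte markers summed to 1370 to 2221 CPM and oligodendrocyte markers to 236 to 404 CPM, so glial transcripts were also captured, and which cells a chaperone transcript came from cannot be told apart. In such a sample fewer cells of a type and less RNA per cell cannot be told apart either. Near-identical copies and pseudogenes matter for this family, because reads that aligned to more than 1 place (16.5% to 32.7% of all entries) were kept out of the gene counts.

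A gene was called detected if no library fell under 1 CPM, and 66 of the 81 members passed, against 39.3% of all listed genes. The listed genes were not matched to the members for gene type. An annotated exon length was found for 71.2% of all listed genes, against 100% of members. Together the members took 0.744%, 0.845% and 0.584% of assigned counts in replicates 1, 2 and 3, and Hsp90ab1, Hspa8 and Hsp90aa1 made up 29.1% to 33.8% of that. All 3 HSP90 genes and all 4 Dnaja genes were detected, as were 12 of 13 Hspa, 9 of 13 Dnajb, 25 of 28 Dnajc, 7 of 9 Cct and 3 of 8 Hspb genes. By mean CPM per kb 48 of the 66 detected members (72.7%) lay above the median of detected genes and 16 (24.2%) in the top 10%. Detected members had a median of 10.98 ± 0.967 CPM per kb (SD, n = 3), against 5.81 ± 0.318 for the 11741 detected genes with an exon length.

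**Figure D1:**
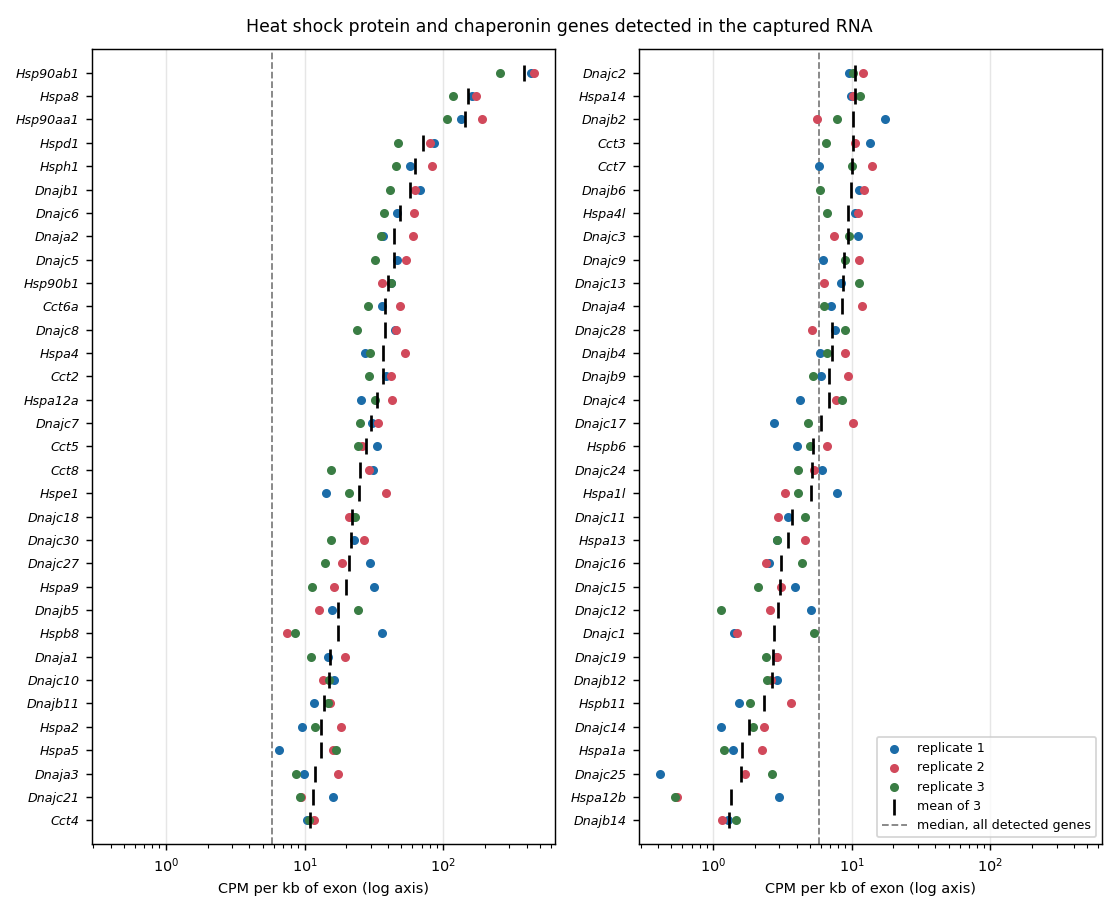
CPM per kb of exon (log axis) for the 66 detected members, ordered by mean, with 1 dot per library and a bar at the mean; the dashed line is the median of all detected genes at 5.81 CPM per kb. Hsp90ab1 stands at the top at 380 CPM per kb, and Dnajb14 at the bottom at 1.30.

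A constitutive HSP90 and a constitutive HSP70 gene had the highest mean levels per kb of exon, but the HSP70 gene was not separated from the inducible Hsp90aa1 beyond its spread. Hsp90ab1, the constitutive HSP90, measured 1296, 1357 and 769 CPM in replicates 1, 2 and 3. That is 380 ± 108 CPM per kb, 66.2 ± 21.5 times the median of detected genes in the same library. Hspa8, the constitutive HSP70 that also strips clathrin from vesicles, measured 694, 747 and 509 CPM, or 151 ± 29.1 CPM per kb. Hsp90ab1 exceeded Hspa8 by 1.31 ± 0.17 on the log2 scale of CPM per kb, in 3 of 3 libraries. Replicate 3 was the lowest of the libraries for both genes. Hspa8 made up 88.0 ± 1.33% of the summed CPM per kb of Hspa8, Hspa1a, Hspa1b, Hspa1l and Hspa2. Hsp90ab1 (GRCm38, chr17:45567775-45573271, minus strand) has 2999 exonic bases, and Hspa8 (chr9:40800984-40810087, plus strand) has 4301.

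The stress-induced members did not share 1 level. Hsp90aa1, the inducible HSP90, measured 525, 746 and 421 CPM, Hsph1, the inducible exchange factor of the HSP110 family, 420, 605 and 331, and Dnajb1, the inducible partner of HSP70, 217, 201 and 133. All of these lay in the top 10% of detected genes by CPM per kb, at 143 ± 42.2, 62.2 ± 19.3 and 57.2 ± 13.9. Hspa8 and Hsp90aa1 were not separated beyond their spread (log2 difference 0.096 ± 0.204 per kb of exon, positive in 2 of 3 libraries). Per kb of the longest coding transcript Hspa8 was the higher, with a mean of 271 against 172 CPM per kb, and per kb of stretches found at no other locus the lower, with 217 against 269.7. At the other end, Hspa1a measured 4.10, 6.68 and 3.58 CPM and Hspa1b 0.594, 2.75 and 1.62 CPM, from 76, 165 and 31 and from 11, 68 and 14 counts. Hspb1, which encodes the small heat shock protein HSP25, measured 1.08, 3.77 and 0.461 CPM. Hspa1b and Hspb1 fell short of 1 CPM in 1 library each. Dnaja1 and Dnaja4, J proteins of the cytosol, lay between these extremes at 15.2 ± 4.28 and 8.44 ± 3.05 CPM per kb, and 44.1% of the exonic bases of Dnaja4 overlap exons of Wdr61 on the other strand.

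The copies of these genes limit what their counts show. Of the 50-base stretches in their annotated transcripts, 60.3% for Hspa1a and 62.3% for Hspa1b also occurred in a transcript of another locus, each having the other as the locus that shares most. For Hspb1 the share was 50.1%, for Hsp90aa1 47.5%, for Hspd1 39.7% and for Hspa8 37.0%, and for each of these 4 the locus that shares most is a processed pseudogene. It was above 10% for 11 of 81 members, while for Hsp90ab1 it was 3.44%. How far this lowered the counts was not tested, since the read length is not given in the labels used.

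**Figure D2:**
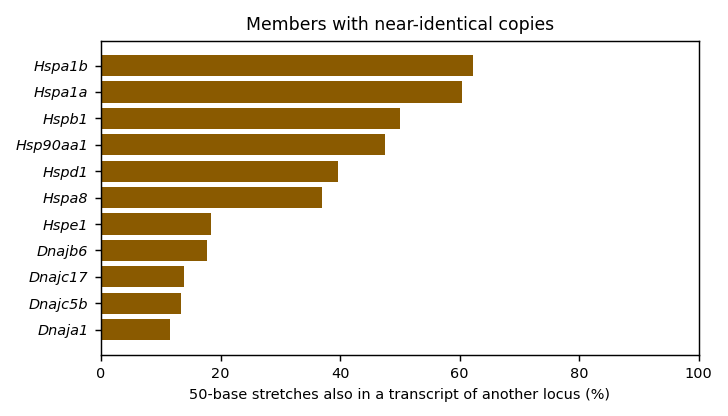
Share of distinct 50-base stretches of a gene's GENCODE transcripts that also occur, on either strand, in a transcript of another locus, for the 11 members above 10%. Hspa1b and Hspa1a lead at 62.3% and 60.3%, and Dnaja1 is the lowest shown at 11.6%.

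Set against each other, constitutive members stood above stress-induced ones by list median, but this rested on Hspa1a and Hspa1b. The median of the 6 constitutive members (Hspa8, Hspa4, Hsp90ab1, Dnaja2, Dnajb2, Dnajc7) exceeded that of the 8 stress-induced ones (Hspa1a, Hspa1b, Hsp90aa1, Hsph1, Hspb1, Dnajb1, Dnaja1, Dnaja4) by 1.84 ± 0.12 on the log2 scale of CPM per kb plus 0.1. The difference was 1.71, 1.87 and 1.94 in replicates 1, 2 and 3, which is a 3.58-fold difference on that scale. Without Hspa1a and Hspa1b it fell to 0.49 ± 0.26. Against a shorter stress-induced list of 4 (Hspa1a, Hspa1b, Hspb1 and Dnajb1, of which Dnajb1 was abundant here) it was 4.69 ± 0.44. The members and lists were chosen with results known, so this difference carries no test.

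Within paralog pairs the order went both ways. Of 6 pairs of a constitutive and a stress-induced gene, the constitutive gene was the higher in 4 and the stress-induced one in 2, each in 3 of 3 libraries. Hspa8 exceeded Hspa1a by 6.49 ± 0.28 and Hspa1b by 7.93 ± 0.94 on the log2 scale of CPM per kb plus 0.1. Counted per stretch found at no other locus, these differences were 5.71 ± 0.29 and 7.20 ± 1.07. Over all lengths and pseudocounts tried they ranged from 5.71 to 7.34 and from 6.59 to 8.78. These were the widest of the 7 pairs with exon, coding transcript and unshared lengths alike.

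For HSP90 the gap was narrower, and its size depended on the copies. Hsp90ab1 exceeded Hsp90aa1 by 1.40 ± 0.25, or 72.5 ± 3.405% of their summed CPM per kb. Counted per stretch found at no other locus the difference was 0.44 ± 0.25, still positive in 3 of 3 libraries. Dnaja2, a constitutive J protein of the cytosol, exceeded Dnaja1 by 1.53 ± 0.19, which was 0.94 ± 0.19 with the longest coding transcript as length and -0.0011 ± 0.194 without length correction.

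The inducible gene was the higher in the other two pairs. Hspa4, the constitutive HSP110 relative, measured 150, 291 and 165 CPM, and Hspa4 minus Hsph1 was -0.78 ± 0.26, or -1.46 ± 0.26 with the longest coding transcript. Dnajb2, a J protein enriched in neurons, measured 73.6, 23.9 and 32.99 CPM, and Dnajb2 minus Dnajb1 was -2.60 ± 0.77. Replicate 1 held the highest level of Dnajb2 and the smallest gap to Dnajb1 (-1.96, against -3.45 and -2.40 in replicates 2 and 3). In all pairs the mean difference was larger than its spread, but p = 0.25 by an exact permutation test (two-sided, flipping signs) for each of the 7 pairs compared (adjusted p = 0.25, Benjamini-Hochberg), which is the smallest that 3 libraries allow.

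**Figure D3:**
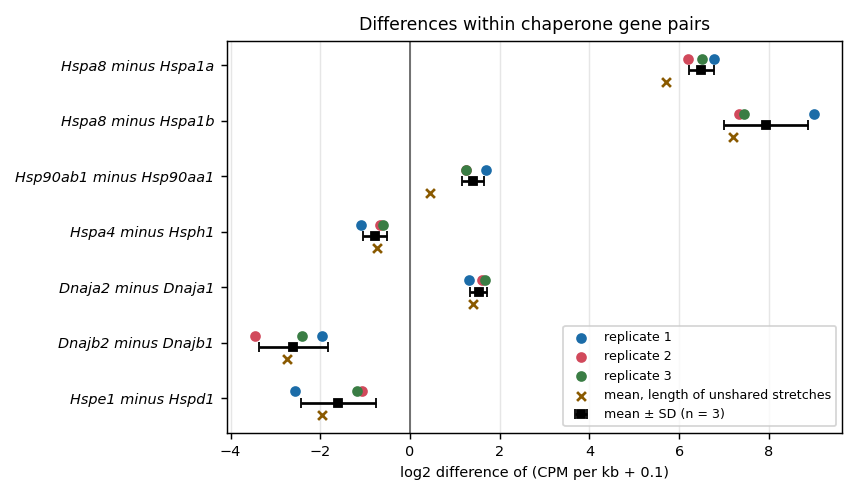
Within-library log2 differences of CPM per kb plus 0.1 for 7 gene pairs, with 1 dot per library, the mean and SD as a square with bars, and a cross for the mean when length counts only stretches found at no other locus. The crosses keep the side of 0 of every pair, and the cross for HSP90 (0.44) lies well left of its mean (1.40).

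In mitochondria the chaperonin barrel gene exceeded that of its lid. Hspd1, which encodes HSP60, measured 225, 213 and 125 CPM and Hspe1, which encodes HSP10, 21.2, 57.0 and 30.7 CPM. Hspe1 minus Hspd1 was -1.60 ± 0.84 on the log2 scale of CPM per kb plus 0.1, with -2.56 in replicate 1 and -1.06 and -1.18 in replicates 2 and 3. With the longest coding transcript as length it was -0.80 ± 0.84, no larger than its spread, and without length correction -2.44 ± 0.84. Hspa9, the mitochondrial HSP70 (mortalin), measured 137, 70.8 and 48.6 CPM, highest in replicate 1. Among the mitochondrial J proteins Dnaja3 measured 38.8, 67.9 and 34.1 CPM, Dnajc30 37.7, 44.3 and 26.0 CPM and Dnajc11 37.1, 31.6 and 49.5 CPM. Per kb of exon Dnajc11, Dnajc15 and Dnajc19 lay between 2.72 and 3.69 CPM per kb, below the median of detected genes. For Dnajc11, with 10678 exonic bases, this depended on the length used. Per kb of the longest coding transcript (3151 bases) Dnajc11 measured 12.5 ± 2.91 CPM per kb. On that length Dnaja3 measured 17.7 ± 6.92, Dnajc30 21.7 ± 5.61, Dnajc15 3.18 ± 0.919 and Dnajc19 4.38 ± 0.438.

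All 12 listed ER members were detected, and the ER HSP90 led this list. Hsp90b1 (GRP94) measured 170, 146 and 170 CPM, 40.1 ± 3.43 CPM per kb. Hspa5 (BiP), the HSP70 of the ER, measured 27.9, 67.9 and 71.5 CPM, 13.2 ± 5.72 CPM per kb, and was lowest in replicate 1. Its J proteins Dnajc10 (14.97 ± 1.40 CPM per kb), Dnajb11 (13.8 ± 1.93) and Dnajc3 (9.32 ± 1.83) lay close to it. Dnajb9 measured 6.88 ± 2.19 CPM per kb, and Hspa13, Dnajc16, Dnajc1, Dnajb12, Dnajc25 and Dnajb14 measured 1.30 to 3.45. Dnajc1 stood out by library, with 16.5 and 17.4 CPM in replicates 1 and 2 and 61.8 in replicate 3.

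The J proteins of vesicle traffic were among the most abundant members. Dnajc6 (auxilin), the neuronal partner of Hspa8 in clathrin uncoating, measured 276, 364 and 221 CPM, 48.6 ± 12.2 CPM per kb. Dnajc5, which encodes the cysteine string protein of synaptic vesicles, measured 321, 376 and 225 CPM, 44.2 ± 10.9 CPM per kb. Dnajc13, an endosomal J protein, was lower at 8.69 ± 2.54 CPM per kb and, unlike the others, highest in replicate 3. Among members by CPM per kb, Dnajc6 and Dnajc5 ranked 7th and 9th, and neighbouring ranks from Hspd1 down to Dnajc8 did not differ beyond their spread. Dnajc5b and Dnajc5g, relatives of Dnajc5 known from the testis, had at most 2 counts in any library.

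The CCT subunits, which assemble into 1 ring of 8 different proteins, were all detected, Tcp1 (the CCT1 subunit, whose name falls outside the symbol rule) among them. By CPM they were Cct6a at 138 ± 37.1, Tcp1 at 94.1 ± 23.7, Cct2 at 93.3 ± 17.3, Cct8 at 77.9 ± 26.4, Cct5 at 76.7 ± 13.0, Cct7 at 67.6 ± 27.8, Cct3 at 65.0 ± 22.3 and Cct4 at 46.2 ± 2.84. Per kb of all annotated exons the highest subunit was 6.59, 4.64 and 4.43 times the lowest in replicates 1, 2 and 3. Per kb of the longest coding transcript, which 7 of the 8 have in the annotation, this range narrowed to 3.10, 2.77 and 2.06, with Cct4 the lowest at 18.6 ± 1.14 and Cct2 the highest at 47.6 ± 8.84. The annotation holds 3 to 7 retained-intron transcripts for each subunit other than Cct2, and no coding transcript for Cct6a. The relatives Cct6b and Cct8l1 had at most 3 counts in any library.

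**Figure D4:**
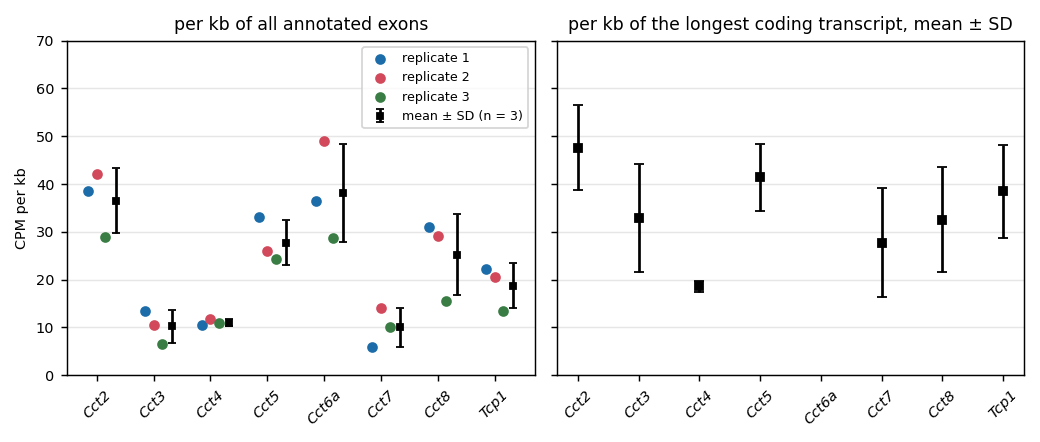
CPM per kb of the CCT subunits, per kb of all annotated exons (left, 1 dot per library with mean and SD) and per kb of the longest coding transcript (right, mean and SD, n = 3; Cct6a has none). Cct3 and Cct7 sit at 10.2 and 9.97 on the left and at 32.9 and 27.7 on the right.

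Of 6 listed small heat shock protein genes, Hspb6 and Hspb8 were detected, Hspb1, described above, was near the threshold, and Hspb2, Hspb3 and Hspb7 (known from muscle) had at most 7 counts in any library. Hspb8, a small heat shock protein that works with Bag3, measured 70.9, 14.5 and 16.6 CPM, with replicate 1 far above the others. The astrocyte gene Gfap (444, 124 and 136 CPM) and the smooth muscle gene Myh11 (47.2, 7.21 and 6.69 CPM) were also highest in replicate 1. The 8 mural and fibroblast markers, of which 6 were detected, summed to 170 CPM in replicate 1 and 56.4 in each of the others, and the 8 astrocyte markers, all detected, to 2221, 1370 and 1374 CPM. Not every gene of these lists was highest in replicate 1. Oligodendrocyte markers (404, 243 and 236 CPM) and microglial markers (40.0, 21.2 and 29.4 CPM) also summed highest there. Neuronal and endothelial markers summed highest in replicate 2, and ependymal markers in replicate 3. The part of any of these cells in the level of Hspb8 was not tested. Cryab (alpha B-crystallin), a small heat shock protein whose symbol falls outside the rule, was detected at 26.3, 10.6 and 14.4 CPM, again highest in replicate 1. Hspa12b, an HSP70 relative known from endothelium, was also highest in replicate 1 (10.96, 2.03 and 1.96 CPM), while the 8 endothelial markers summed to 74.8, 99.5 and 54.2 CPM.

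Among the remaining members, 15 were not detected, and 4 of these (Dnajb8, Dnajc22, Dnajc5g and Hspb7) had 0 counts in every library, which allows up to 0.162, 0.122 and 0.346 CPM. Just inside the detection threshold lay Dnajc25, Hspa12b and Hspb11, with 1.89, 1.96 and 3.18 CPM in their lowest library, and just outside it Hspa1b and Hspb1, with 0.594 and 0.461. Other abundant members were Dnajc8, a J protein of the nucleus, at 37.9 ± 12.3 CPM per kb and Hspa12a, a brain-rich HSP70 relative, at 33.5 ± 8.73. The range over libraries was smallest for Dnajc18, at 122, 116 and 127 CPM. Hspa2, best known from the testis, measured 25.3, 48.3 and 31.5 CPM.

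Variation between libraries was set against the trend of all genes. Of 68 members tested, edgeR's goodness-of-fit test called 0 at an adjusted p under 0.05, against 0.222% of the 15336 genes tested, a share at which 0 is no result about the members. At an unadjusted p under 0.05 it called 2, Hspb8 (edgeR adjusted p = 0.292) and Dnajc1 (edgeR adjusted p = 0.666), against 7.09% of all genes. DESeq2's dispersion outliers also held 0 members. The highest library was at least 2 times the lowest for 19 of 66 detected members, or 28.8%, against 47.7% of all detected genes. That range ran from 1.10 times for Dnajc18 to 6.41 times for Dnajc25. The 2 sets were not matched for level: by CPM per kb 72.7% of detected members lay above the median of detected genes. The part of level in the smaller share was not tested.

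Replicate 3 was the lowest library for more of the members than any other. Of the 66 detected, 19, 13 and 34 were lowest by CPM in replicates 1, 2 and 3 (28.8%, 19.7% and 51.5%), against 32.3%, 36.3% and 31.4% of all detected genes. Highest by CPM in replicates 1, 2 and 3 were 18, 35 and 13 (27.3%, 53.0% and 19.7%), against 32.6%, 31.1% and 36.3%. With edgeR's TMM scaling, 17, 11 and 38 were lowest (25.8%, 16.7% and 57.6%), against 31.1%, 31.9% and 37.0%. On that scale the median detected member lay 0.30 above its own mean in replicate 2 and at -0.32 in replicate 3 (log2), where the median of all detected genes lay at 0.039 and -0.039. By CPM, 6 of 8 mitochondrial, 5 of 7 CCT and 6 of 6 detected stress-induced members were lowest in replicate 3, as were 4 of 6 constitutive and 3 of 12 ER members. Replicate 3 was also the shallowest library and had 45.3% of its entries in no counted feature (31.4% and 25.6% in replicates 1 and 2), and 9 of 10 neuronal markers were lowest there. The part of these in the lower levels was not tested.

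**Figure D5:**
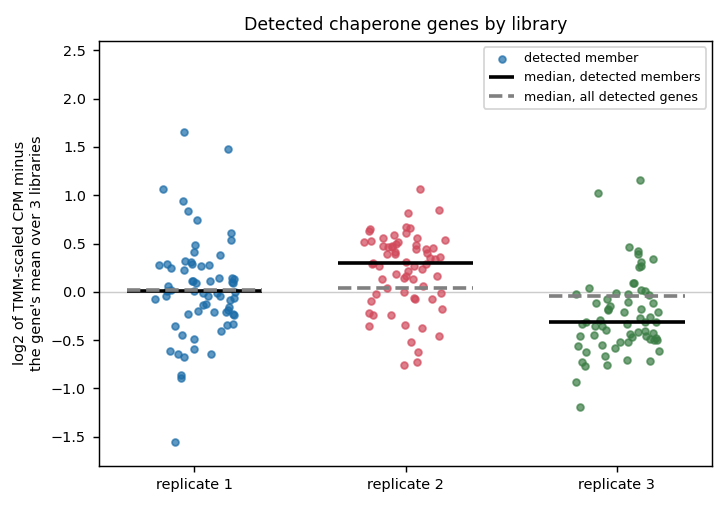
Log2 of TMM-scaled CPM minus the gene's mean over the 3 libraries, with 1 dot per detected member (66 per library), a black line at their median and a dashed line at the median of all detected genes. The members' median is 0.30 in replicate 2 and -0.32 in replicate 3, while that of all genes stays within 0.04 of 0.

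Partners of the chaperones were broadly present. A list of 21 genes held co-chaperones and the CCT subunit Tcp1 named above, and 20 of them were detected. Cdc37l1 at 195 ± 22.9 CPM and the HSP70-HSP90 adaptor Stip1 (HOP) at 108 ± 15.6 led this list, followed by Tcp1. The ubiquitin ligase Stub1 (CHIP) was the 1 not detected, at 0.540, 1.78 and 0.461 CPM. Of its exonic bases 42.3% overlap exons of other genes, Jmjd8 and Mir3082, and the effect of this on its counts was not tested. All 6 subunits of prefoldin, which hands clients to CCT, were detected, led by Pfdn5 (67.2 ± 24.6 CPM), Pfdn2 (58.0 ± 23.3) and Vbp1 (32.5 ± 8.92). All 16 ER and mitochondrial partners were detected, led by the lectin chaperones Canx (130 ± 19.8 CPM) and Calr (101 ± 24.2) and the disulfide isomerase Pdia3 (49.8 ± 19.4). The variation test called 0 genes in these lists, against 0.222% of all genes tested, a share at which 0 is no result about them. Lowest in replicate 3 by CPM were 14 of the 20 detected genes of the co-chaperone list, Tcp1 among them, and 4 of the 16 organelle partners. The share over all detected genes was 31.4%.

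The regulators of the heat response were present at modest levels. All 4 listed heat shock factor genes were detected, with Hsf1 at 26.5, 51.6 and 86.9 CPM, Hsf2 at 53.3, 29.5 and 24.2 and Hsf4 at 3.13 ± 0.401 CPM. Hsf5 passed the threshold narrowly, at 1.13, 1.05 and 2.31 CPM in replicates 1, 2 and 3. Hsf1 was highest in replicate 3, as were 36.3% of all detected genes, while Hsf2 was highest in replicate 1. The variation test called neither of them. Of 8 other genes known as heat-inducible 7 were detected, led by Stip1, Chordc1 (59.3 ± 18.8 CPM) and Fkbp4 (40.3 ± 5.23), and the collagen chaperone Serpinh1 was not (0 to 1.27 CPM).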

How the data were processed

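Tagged polysome RNA of 3 libraries was sequenced; reads were processed with STAR 2.0.0e and HTSeq on mm10, per the submitters' processing notes, and the deposited files give whole-number counts per gene, not normalized. The labels name no annotation, strand setting or read length. The 5 HTSeq summary classes and a row named unknown, with a share of 0%, stayed out of library sizes and tests. Since reads carry no stated molecular identifiers, limits from a count of 0 (read as at most 3 counts) cover counting error only.

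Members were matched by symbol. They and the lists were chosen with earlier results of these data known. The genes named are the listed members, the 10 highest by CPM per kb, any called as varying and the 3 highest of other lists. Other names (Dnajc8, Hspa12a, Hspa12b, Dnajc18, Dnajc25, Hspb11, Hspa2, Dnajb14, Cryab, Stub1, Serpinh1, Hsf4, Hsf5, Ddit3, Trib3, Arc, Npas4 and the undetected members) were chosen after their values were seen. Exon lengths and copies come from GENCODE M21 (GRCm38), with lengths for 91.9% of detected genes and all members. Variation was tested with edgeR 4.0.16 (R 4.3.3; TMM, intercept only, trended dispersion, goodness of fit on 2 degrees of freedom, Benjamini-Hochberg over the 15336 genes averaging at least 1 CPM) and DESeq2 1.42.0, after a check on simulated data. Pairs used exact sign-flip permutation. Python 3.11.15, pandas 2.3.3, numpy 2.4.6 and matplotlib 3.10.9 did the rest. Alternatives covered thresholds, pseudocount, length, scaling, filters, dispersion and leaving out each library.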

Additional observations from a re-analysis of the deposited data

How the results depend on the processing

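Of 81 values under alternative settings 1 changed sign and 6 moved by more than the spread between libraries; 74 kept their direction and side of the threshold or, for values with no test, stayed within that spread or 1.5 times. For the gene pairs this means the sign alone, and several sizes moved by over 1.5 times. Those not given with the pairs are Hspa8 minus Hspa1a at 7.09 without length correction and 5.86 with a pseudocount of 1, and Hspa8 minus Hspa1b at 8.74 without length correction. The constitutive minus stress-induced median (log2, 1.84) was 1.47 without length correction, 4.69 with the strict stress-induced list, 0.49 without Hspa1a and Hspa1b and 2.46 with list means. The CCT range (5.22 times on average) was 2.64 with the longest coding transcript and 3.14 without length correction. Dnaja2 minus Dnaja1 was -0.0011 without length correction. Beyond the alternatives' own construction the cause was not tested. Detected members numbered 64 to 67 and members called as varying 0 under every setting run, although a common dispersion called 783 genes in all. Length from 50-base stretches found at no other locus was added after seeing the data; the version over the whole genome was not run. No paired analysis was possible because there is 1 group. Counts under about 100 per library, as for Hspa1b and Hspb1, limit what can be said of those genes.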

Other observations

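Genes of the unfolded protein response, the programme that raises ER chaperones, were detected for 9 of 10 listed, led by the transcription factor genes Atf4 at 82.5 ± 20.5 CPM, Atf6 at 58.5 ± 5.89 and Xbp1 at 52.8 ± 21.4 (SD, n = 3). Ddit3, a late marker of that response, measured 8.58, 4.37 and 8.08 CPM in replicates 1, 2 and 3, and Trib3 had 0 counts in every library. Of 12 immediate-early genes, which rise within minutes of neuronal activity or handling, 11 were detected, led by Egr1 at 388, 379 and 469 CPM, Fosl2 at 55.7 ± 11.2 and Jun at 39.8 ± 19.0. Arc (10.7, 30.4 and 64.6 CPM) and Npas4 (15.4, 6.64 and 49.4 CPM) were highest in replicate 3, as were 36.3% of all detected genes. Fosl2 was highest in replicate 2. Neither Arc nor Npas4 was called as varying at an adjusted p under 0.05. A relation of these genes to the chaperone levels was not tested.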
